A study of Drosophila melanogaster with 6 samples.

Results

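The genes described here mark the blood cells, or haemocytes, of the Drosophila larva. Members were the probe sets whose only gene symbol in the platform's probe table was PPO1, PPO2, PPO3, He, Hml, NimC1, Pxn, eater, srp or lz. This gave 11 probe sets of 10 genes among the 18769 probe sets tested, since Pxn had 2. Of these genes 5 stand for plasmatocytes (He, Hml, NimC1, Pxn, eater), 3 for crystal cells (PPO1, PPO2, lz) and 1 for lamellocytes (PPO3), and srp is shared by the blood lineages. The study asked how the sugar in a mother's food bears on the RNA of her offspring. Virgin females of the white-eyed laboratory strain w1118 ate semi-defined food for 7 days, with sucrose at 0.15 M for the control group or at 1 M for the high-sucrose group, and were then mated to w1118 males held on control food. The eggs of both groups were laid on control food, and the larvae of both were reared at 25 C on 0.15 M sucrose, per the protocols and the design text. Whole male larvae of the last instar were taken after 12 h on fresh control food, and their RNA was hybridised to Affymetrix arrays, 3 per maternal diet. The titles go against this on 2 points: they speak of the larvae themselves as reared on control food or high sugar, and they call them wandering while the characteristics place them in the middle of that instar. The characteristics were followed, so every difference below is read as one of maternal diet, and under the titles' wording it would be one of the larvae's own food. In the labels, how many larvae were pooled for an array is not stated.

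Plasmatocytes are the phagocytes that make up most of the blood cells of a healthy larva. Crystal cells store prophenoloxidases, the zymogens of the enzymes that melanise wounds and invaders. Lamellocytes are large flat cells that wrap parasitoid eggs and are rare in larvae that have not been challenged. In RNA of whole larvae, fewer cells of a type and less RNA per cell cannot be told apart. No cell count is part of these data.

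Values are linear intensities as deposited, and they compare a probe set between arrays, not genes with each other. The lower quartiles of the arrays lay between 12.2 and 14.6, the medians between 51.5 and 55.7, and the upper quartiles between 218.2 and 224.2 in control and between 212.8 and 216.3 in high-sucrose arrays. The median log2 difference, high sucrose minus control on log2(intensity + 16), was -0.034 over all tested probe sets and -0.053 over those above the upper quartile of mean intensity. On this scale 58.9% of all probe sets were below 0. A gene is said to have risen or fallen where its limma p-value, adjusted by Benjamini-Hochberg over all 18769 probe sets, was under 0.05. No detection calls are part of these data. Among the blood cell genes lz, at 13.8 to 28.8, was nearest to the dim end of the arrays, close to their lower quartiles.

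Of the 10 genes, 2 fell in the offspring of high-sucrose mothers: PPO3, the lamellocyte prophenoloxidase, and He, a surface protein of haemocytes. Of all tested probe sets 0.57% fell. None rose, against 0.0533% of all probe sets, and at an unadjusted p under 0.05 the counts were 4 lower and 1 higher by the same limma fit, against 8.8% and 3.59% of all probe sets. The other 8 genes did not pass. Groups did not overlap for 3 genes on the lower side (PPO1, PPO3 and He; 12.6% of all probe sets) and for 1 on the higher side (Pxn; 5.96%). The median log2 difference over the 10 genes was -0.17. The median was 0.063 over the plasmatocyte genes, of which 3 of 5 were above 0. It was -0.19 over the crystal cell genes, all 3 of which were below 0, as were 58.9% of all probe sets. The difference between the classes was not tested. The plasmatocyte median lay below 0 without control 3 (-0.014), without high-sucrose 1 (-0.020) and with both Pxn probe sets averaged (-0.061).

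**Figure D1:**
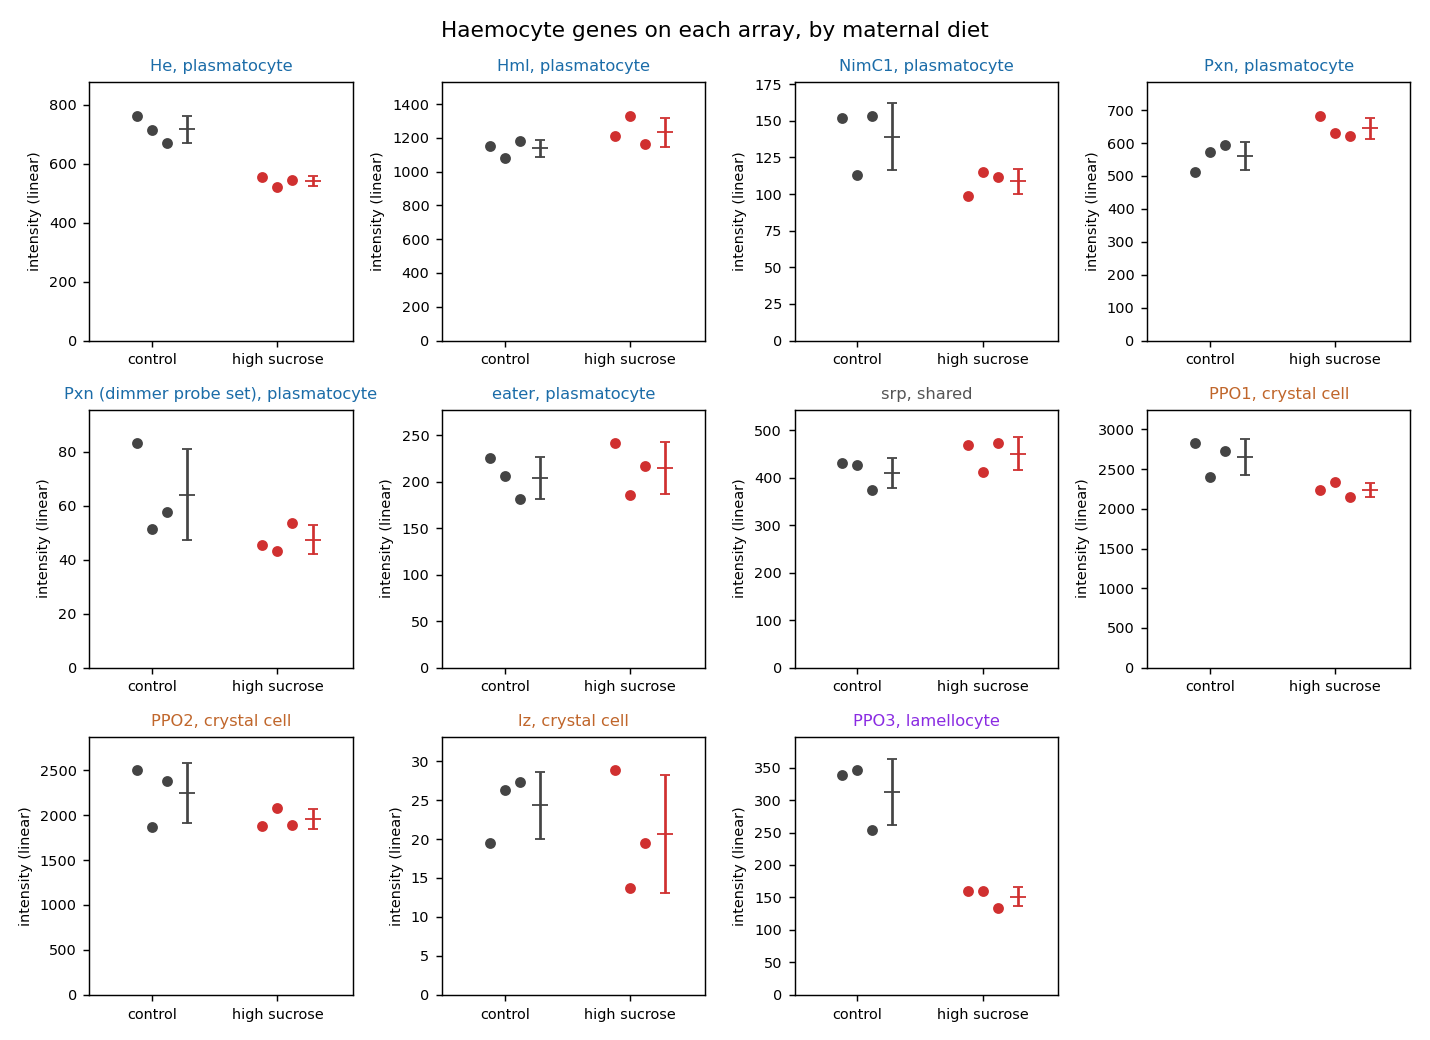
Linear intensity (vertical axes, each from 0) of the 11 probe sets on each array, grouped by maternal diet, with 3 points per group and the mean ± SD beside them. For PPO3 the high-sucrose arrays lie between 133.8 and 160.5, all under the control arrays at 253.1 to 345.8, while for Hml, eater and srp the groups overlap.

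PPO3 encodes the prophenoloxidase that lamellocytes make. Its intensity was 338.1, 345.8 and 253.1 on control arrays 1 to 3 and 159.6, 160.5 and 133.8 on high-sucrose arrays 1 to 3. Every high-sucrose array lay well below every control array, and in each group array 3 was the lowest. The mean fell from 312.3 ± 51.4 to 151.3 ± 15.2 (SD, n = 3 each, as for all intensities below), so that the high-sucrose mean was 0.484 of the control mean. The log2 difference was -0.96 ± 0.12 (SE, as for all log2 differences; 95% interval -1.24 to -0.69; adjusted p = 0.0125). Only 0.112% of all tested probe sets had a log2 difference as low or lower. Without control 2 the adjusted p was 0.102, and without high-sucrose 3 it was 0.0547, with log2 differences of -0.89 in both. Without the intensity trend in the variances it was 0.136.

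PPO3 was the only lamellocyte gene among the members, so a wider list of 9 other lamellocyte genes was read beside it, of which 7 were measured. None of the 7 passed over all probe sets, while 2 were lower and 0 higher at an unadjusted p under 0.05. Over all probe sets these shares were 8.8% and 3.59%. Their median log2 difference was -0.12, and 5 were below 0, as were 58.9% of all probe sets. Groups did not overlap for 3 of the 7 on the lower side (12.6% of all probe sets) and for 1 on the higher side (5.96%). ItgaPS4, an integrin alpha subunit used as a lamellocyte marker, had intensities of 172.1, 154.2 and 117.8 on control arrays and 85.0, 93.9 and 73.5 on high-sucrose arrays. The groups did not overlap, and here too array 3 was the lowest of each group. Its log2 difference was -0.70 ± 0.14 (SE; 95% interval -1.01 to -0.39; adjusted p = 0.0679). The gene atilla, which encodes the L1 surface antigen by which lamellocytes are commonly stained, had 1168, 1028 and 1035 on control arrays against 864.1, 842.1 and 837.0 on high-sucrose arrays. Again no array of the groups overlapped, and the log2 difference was -0.34 ± 0.061 (adjusted p = 0.0524). Both passed when only the brighter 50% of probe sets were tested (adjusted p = 0.0441 for ItgaPS4 and 0.0425 for atilla) and under no other alternative.

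ItgaPS5, another integrin alpha gene, was dim, at 21.8 ± 2.91 and 15.7 ± 2.00, and its groups did not overlap (adjusted p = 0.469). The remaining lamellocyte genes of that list, mys, cher, msn and puc, have roles in many tissues. For PPO3, ItgaPS4 and atilla too, RNA of whole larvae does not show which cells it came from. For msn and puc the log2 differences were -0.061 and -0.12, with overlap (adjusted p = 0.803 and 0.518). The integrin beta subunit gene mys, at 1138 ± 35.5 and 1173 ± 57.3 (adjusted p = 0.803), and the filamin gene cher, at 2881 ± 95.6 and 3052 ± 31.4 (adjusted p = 0.498), lay slightly above 0. The groups of cher did not overlap, with the high-sucrose arrays above the control arrays. PPO3, ItgaPS4 and atilla had the lowest log2 differences of the 8 lamellocyte genes measured. Ranked over 11982 genes by the root mean square difference of their centred log2 values over the 6 arrays, ItgaPS4 came close behind the nearest gene to PPO3 (0.144). The nearest was CG14610 (0.124), which fell from 270.8 ± 50.3 to 145.9 ± 15.3 (adjusted p = 0.0282), and next after ItgaPS4 came the midgut maltase gene Mal-A6 (0.173). This measure includes the difference between the groups, so a near rank adds no separate evidence.

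**Figure D2:**
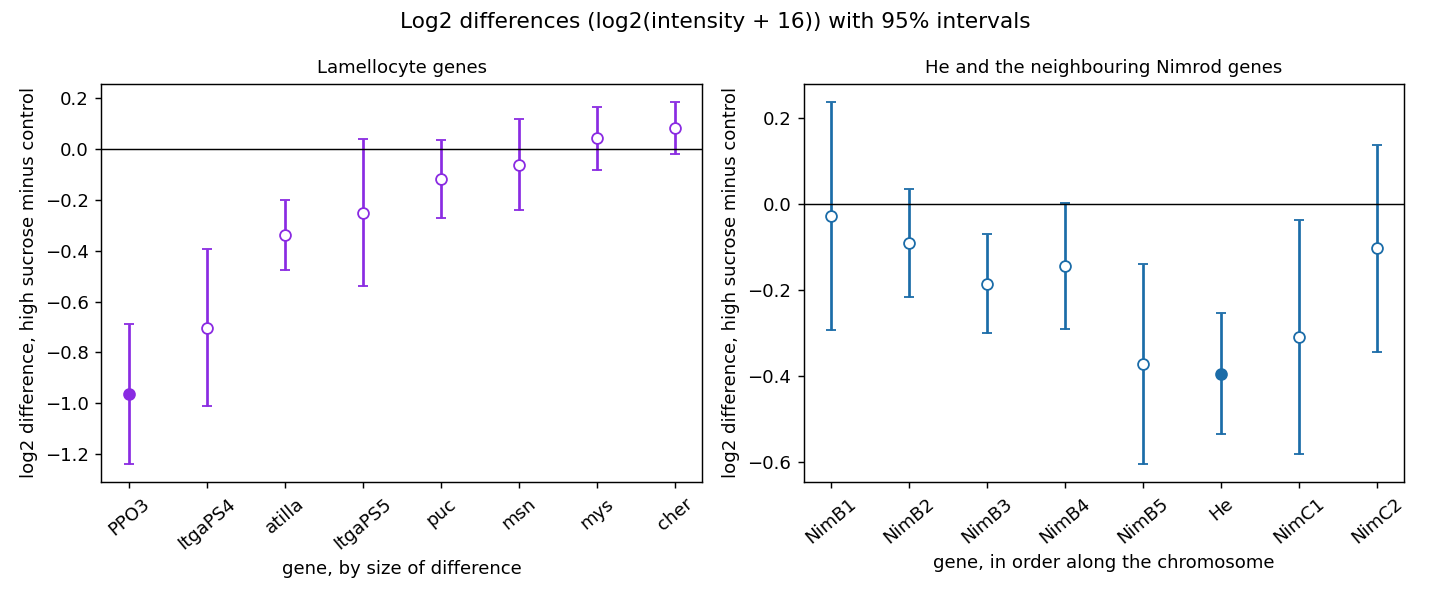
Log2 difference, high sucrose minus control on log2(intensity + 16), with unadjusted 95% intervals (vertical axes) for the lamellocyte genes sorted by size (left) and for He and the Nimrod genes near it in chromosome order (right); filled points passed the adjusted threshold. PPO3 at -0.96, ItgaPS4 at -0.70 and atilla at -0.34 stand lowest on the left, and He at -0.39 and NimB5 at -0.37 on the right.

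He encodes Hemese, a glycosylated transmembrane protein on the surface of haemocytes, found on all classes and counted with the plasmatocytes here. Its intensity was 761.7, 715.7 and 671.3 on control arrays and 555.2, 520.6 and 545.3 on high-sucrose arrays. The groups were well apart, and the spread within each was small, with a coefficient of variation of 6.31% and 3.30%. The mean fell from 716.2 ± 45.2 to 540.4 ± 17.8, and the log2 difference was -0.39 ± 0.062 (95% interval -0.54 to -0.25; adjusted p = 0.0282). Of all tested probe sets 2.74% lay as low or lower. The call did not hold up in every fit: with any 1 of the 6 arrays left out the adjusted p was 0.056 to 0.135, and under quantile scaling and cyclic loess it was 0.0775 and 0.0686, with log2 differences of -0.44 to -0.34 throughout. With the replicate block it was 0.0714, and without the intensity trend 0.216. In the same ranking, the nearest genes to He were Sr-CIV, a scavenger receptor gene (0.0416; 149.8 ± 7.71 and 111.6 ± 1.54; adjusted p = 0.0852), CG30414 (0.0430; adjusted p = 0.0816) and the serpin gene Spn28Dc (0.0464).

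Hml and eater, widely used plasmatocyte markers, did not pass, and neither did Pxn. Hml encodes hemolectin, a large clotting factor of the haemolymph, and had 1151, 1083 and 1182 on control arrays against 1208, 1330 and 1162 on high-sucrose arrays. The groups overlapped, the high-sucrose mean was 1.08 times the control mean, and the 95% interval of the log2 difference ran from -0.031 to 0.25 (adjusted p = 0.509). The phagocytosis receptor gene eater had 226.3, 205.9 and 181.3 on control arrays against 241.7, 185.6 and 216.9 on high-sucrose arrays. Its groups were mixed, with a log2 difference of 0.063 ± 0.11 (95% interval -0.18 to 0.31; adjusted p = 0.858). Without control 3 or without high-sucrose 1 that difference was slightly below 0, at -0.014 and -0.020.

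Pxn encodes peroxidasin, an extracellular enzyme that crosslinks basement membrane, and its 2 probe sets disagreed. The brighter had 512.6, 573.8 and 594.5 on control arrays against 682.0, 630.1 and 621.7 on high-sucrose arrays. All high-sucrose arrays lay above the control arrays, with a log2 difference of 0.20 ± 0.070 (95% interval 0.041 to 0.36; adjusted p = 0.280). The dimmer had 83.1, 51.4 and 57.8 against 45.4, 43.2 and 53.6. Its groups overlapped and its log2 difference had the opposite sign, -0.32 ± 0.16 (adjusted p = 0.446). Neither probe set passed. The brighter represented the gene here, and averaging both gave a log2 difference of -0.061.

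NimC1 encodes a phagocytosis receptor of plasmatocytes, with the epidermal growth factor-like repeats of the Nimrod family. Its intensity was 151.8, 112.8 and 153.3 on control arrays and 98.8, 115.1 and 112.0 on high-sucrose arrays. Control 2 lay within the range of the high-sucrose arrays, and the other 2 control arrays lay above it. The log2 difference was -0.31 ± 0.12 (95% interval -0.58 to -0.036; adjusted p = 0.337). With 1 array left out it ran from -0.44 without control 2 (adjusted p = 0.179) to -0.24 without control 3 (adjusted p = 0.657).

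He and NimC1 are next to each other in the gene order of the RefSeq assembly Release 6 plus ISO1 MT, within a run of Nimrod genes. In that order NimB1, NimB2, NimB3, NimB4 and NimB5 come before He, and NimC1, the cytochrome P450 gene Cyp28a5 and NimC2 after it. All of these had log2 differences below 0, as had 58.9% of all probe sets, from -0.028 for NimB1 to -0.39 for He, and He alone passed. The next gene, rk, a hormone receptor gene, lay above 0, at 40.5 ± 7.41 and 48.0 ± 8.63 (log2 difference 0.18 ± 0.15; adjusted p = 0.671). Such a run was not particular to He. The measured genes within 5 places of eater, itself at 0.063, all lay below 0, from -0.057 for CG14257 to -0.48 for Jhbp11, and none passed. NimB3, a secreted Nimrod protein gene, had 1807, 1757 and 1646 on control arrays against 1545, 1517 and 1510 on high-sucrose arrays, with no overlap (log2 difference -0.19 ± 0.051; adjusted p = 0.177). NimB5, a secreted protein made by the larval fat body, had 147.1, 122.5 and 134.3 against 95.4, 113.0 and 92.9, also with no overlap (log2 difference -0.37 ± 0.10; adjusted p = 0.180). Cyp28a5, which is no haemocyte gene, lay lower as well, at 2277 ± 50.6 and 1977 ± 104.7 (adjusted p = 0.154). Over the 12 Nimrod family genes, eater, NimC1 and the engulfment receptor drpr among them, 0 passed in either direction by limma, 3 were lower and 0 higher at an unadjusted p under 0.05, and 9 were below 0, with a median of -0.097. Over all probe sets these shares were 8.8% lower, 3.59% higher and 58.9% below 0. Of the 12, 3 had groups that did not overlap, all on the lower side, as had 12.6% of all probe sets.

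The crystal cell genes were all below 0 and none passed, with 1 lower and 0 higher at an unadjusted p under 0.05 in limma. Of all probe sets 8.8% were lower and 3.59% higher at that threshold, and 58.9% were below 0. The share below 0 was 67.4% among those above the upper quartile of mean intensity, where PPO1 and PPO2 lay. PPO1, a prophenoloxidase released when crystal cells rupture, had 2826, 2399 and 2726 on control arrays against 2234, 2332 and 2149 on high-sucrose arrays. The groups did not overlap, although control 2 and high-sucrose 2 lay close to each other. Its log2 difference was -0.24 ± 0.067 (95% interval -0.39 to -0.088; adjusted p = 0.185), and -0.13 under quantile scaling (adjusted p = 0.458). PPO2, the prophenoloxidase stored as the crystals that give these cells their name, had 2498, 1867 and 2380 against 1884, 2084 and 1896. Control 2 was the lowest of the 6 arrays and the other 2 control arrays were the highest, with a log2 difference of -0.19 ± 0.10 (adjusted p = 0.480). With 1 array left out this difference ran from -0.32 without control 2 (adjusted p = 0.157) to -0.11 without control 1 (adjusted p = 0.684). Under quantile scaling the PPO2 difference was -0.10 (adjusted p = 0.720). The gene lz, the RUNX transcription factor that commits cells to this fate, was dim, with 19.4, 26.2 and 27.4 against 28.8, 13.8 and 19.4. Its groups overlapped fully, and the 95% interval of its log2 difference, -0.54 to 0.24, was wide (adjusted p = 0.767).

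Control 2 was the lowest control array for PPO1, PPO2 and NimC1, with ratios of the highest to the lowest of 1.18, 1.34 and 1.36. It was also the lowest for Hml and the dimmer Pxn probe set, with ratios of 1.09 and 1.62. For PPO3 control 2 was the highest control array. The median of the crystal cell genes was -0.31 without control 2 and -0.14 without control 3. Of 7 other crystal cell genes 4 were measured and none passed. At an unadjusted p under 0.05, 0 were lower and 1 higher, against 8.8% and 3.59% of all probe sets. The higher one was Mlf, a partner that stabilises the lz protein, at 774.9 ± 12.5 and 856.2 ± 45.2 with no overlap (adjusted p = 0.345). The gene fok, expressed in crystal cells, was at 1086 ± 159.9 and 997.5 ± 101.6 (adjusted p = 0.719).

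The gene srp encodes the GATA factor that specifies all blood cells, and it also acts in the fat body. It had 431.6, 426.7 and 373.8 on control arrays against 469.1, 411.5 and 473.1 on high-sucrose arrays. The groups overlapped, with a log2 difference of 0.13 ± 0.079 (95% interval -0.048 to 0.31; adjusted p = 0.539).

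**Figure D3:**
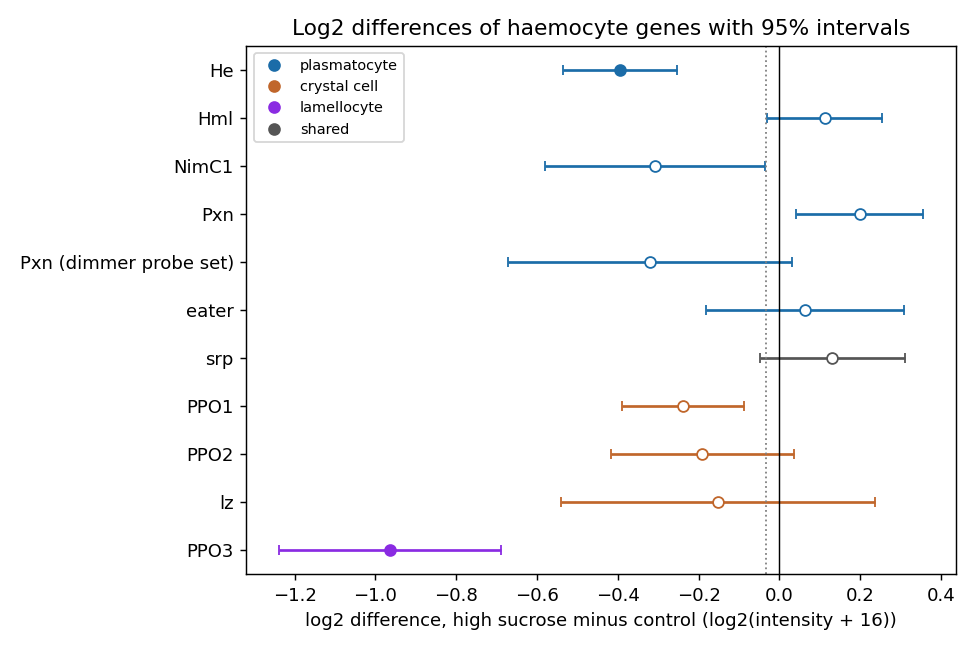
Log2 difference, high sucrose minus control on log2(intensity + 16), with unadjusted 95% intervals (horizontal axis) for the 11 probe sets, coloured by cell class; filled points passed the adjusted threshold and the dotted line is the median of all probe sets at -0.034. The intervals of PPO3 and He lie fully below those of Hml, Pxn (brighter probe set), eater and srp.

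Whether PPO3 and He moved apart from the other genes was read within each array, as the difference of log2 values centred on the control mean, over 17 pairs. PPO3 lay lower against each of the other 9 genes on every high-sucrose array than on any control array. Against Hml this shift was -0.98, -1.10 and -1.15 on the high-sucrose arrays, a mean of -1.08, while the control arrays ran from -0.33 to 0.22. Against He, the other gene that fell, the mean shift was -0.57. He lay lower in the same way against 4 of the other 8: Hml (-0.51), Pxn (-0.59), eater (-0.46) and srp (-0.53). Against PPO1, PPO2, NimC1 and lz the groups overlapped, with mean shifts of -0.16, -0.20, -0.086 and -0.24. The exact permutation test, two-sided, gave p = 0.1 for each of the 13 pairs without overlap, which is the smallest that 3 against 3 arrays allow (0.131 adjusted over the 17 pairs). These pairs were chosen because PPO3 and He had fallen, so the test adds no independent evidence.

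Lists of genes that act with the blood cells held no other gene past the threshold. Of 14 other plasmatocyte genes, such as the matrix genes Col4a1, vkg and Ppn and the receptors crq and Pvr, 0 passed by limma, and the median was -0.0023. At an unadjusted p under 0.05 in that fit 1 was lower and 0 higher, against 8.8% and 3.59% of all probe sets. The lower one, gcm2, was dim (high-sucrose mean 7.30 ± 2.99) and had a log2 difference of -0.45 ± 0.18 (adjusted p = 0.341), and vkg was at 1275 ± 165.9 and 1419 ± 103.3 (adjusted p = 0.534). For this list too, RNA of whole larvae does not show which cells it came from. Of 25 measured genes of blood cell signalling, 0 passed, with a median of -0.030. At an unadjusted p under 0.05, 1 was lower, again gcm2, and 1 higher, against the same shares of all probe sets. The higher one, Pvf3, a ligand of the receptor Pvr, was dim at 5.80 ± 1.94 and 13.5 ± 2.24 (adjusted p = 0.206). Of the 5 genes of lymph gland precursors 0 passed at either threshold, Tep4 being at 1325 ± 20.2 and 1263 ± 110.8 (adjusted p = 0.702) and shg, the E-cadherin gene, at 49.6 ± 10.5 and 44.1 ± 1.86 (adjusted p = 0.781).

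Melanin formation needs prophenoloxidases, the serine proteases that cleave them and the serpins that restrain these. The list read here was wider, and also held the enzyme genes yellow-f, yellow-f2, ple, Ddc and Pu. Of its 13 measured genes 0 passed. At an unadjusted p under 0.05, 3 were lower (psh, Spn28Dc and yellow-f) and 1 higher, and 12 were below 0 (median -0.098). Over all probe sets these shares were 8.8%, 3.59% and 58.9%. The higher one, Pu, which encodes the enzyme that starts pteridine cofactor synthesis, was at 1103 ± 182.4 and 1527 ± 349.4, with overlap, and had the largest log2 difference of the list (0.45 ± 0.17; adjusted p = 0.322). Spn28Dc, a serpin that limits phenoloxidase activity, was at 127.6 ± 6.37 and 94.7 ± 1.41 with no overlap (log2 difference -0.37 ± 0.083; adjusted p = 0.0984). The protease gene psh was at 155.5 ± 8.21 and 112.2 ± 16.5, also with no overlap (log2 difference -0.43 ± 0.11; adjusted p = 0.144). Sp7, a protease upstream of the prophenoloxidases, was at 217.1 ± 1.81 and 212.8 ± 24.0 (adjusted p = 0.915). Of the 4 clotting genes 0 passed at either threshold; fon, a clot protein, was at 7803 ± 226.9 and 7293 ± 358.3 (adjusted p = 0.475).

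Of the genes listed for other tissues, 3 of 6 measured midgut genes fell, against 0.57% of all probe sets. No listed gene of fat body or muscle passed. At an unadjusted p under 0.05 in limma, 5 midgut genes were lower and 0 higher, against 8.8% and 3.59% of all probe sets. Groups did not overlap for 5 of them on the lower side (12.6% of all probe sets). The summed intensity of 6 measured midgut genes was 22285 to 22971 on control and 17305 to 18070 on high-sucrose arrays, and 3 of the 6 fell: Mal-A6 from 1797 ± 91.5 to 917.9 ± 74.8, Mal-A1 from 3148 ± 382.7 to 1909 ± 59.4 and Jon99Ci from 3255 ± 150.5 to 2374 ± 65.9. The sum of 4 fat body genes was 34641 to 36681 and 33120 to 33876, without overlap. By limma 0 of the 4 passed. At an unadjusted p under 0.05, 2 were lower (Lsp2 and Fbp2, adjusted p = 0.307 and 0.385), against 8.8% of all probe sets. All 4 were below 0, as were 58.9% of all probe sets. Groups did not overlap for 3 of them, on the lower side (12.6% of all probe sets). The sum of 5 muscle genes overlapped, at 24897 to 26080 and 24163 to 25664, with 0 passing at either threshold; Mlc1 had an adjusted p of 0.429 and up of 0.704. The brightest genes weigh most in such sums. The maxima of the arrays were lower in high sucrose as well, at 11771 to 12076 against 12783 to 13046 in control. The part of these tissues in the values of the blood cell genes was not tested.

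**Figure D4:**
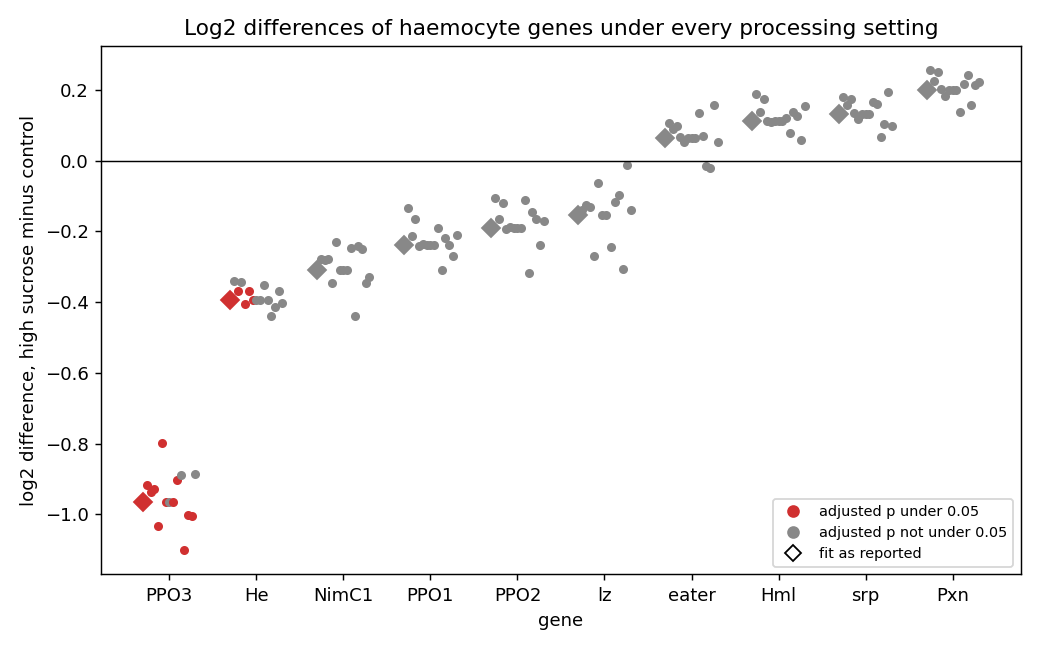
Log2 difference, high sucrose minus control (vertical axis), of each of the 10 genes in the reported fit (diamonds) and under the other scalings, pseudocounts, filter, variance model, replicate block and left-out arrays (circles); red marks an adjusted p under 0.05. PPO3 stays between -1.10 and -0.80 and He between -0.44 and -0.34, and of the fits plotted, which leave out the average over both Pxn probe sets, only eater changes sign.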

How the data were processed

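The authors deposited 1 linear intensity per probe set and array. The sources used here do not give its summary method, background correction or scaling. Per the labels' protocols, cRNA was made from 2 ug of total RNA. Groups follow the maternal diet named in the characteristics, with every array kept. The 183 control probe sets were kept out of the tests. Of the 18769 others 13647 carried 1 gene symbol (11982 genes), updated through a RefSeq gene table that gave names and gene order only. Where a gene had several probe sets, the brightest stood for it. Differences were tested on log2(intensity + 16), which understates those of dim genes, in R 4.3.3 with limma 3.58.1 (2 groups, empirical Bayes with an intensity trend, 4 residual degrees of freedom, Benjamini-Hochberg over all tested probe sets). The 95% intervals are limma's and unadjusted. Python 3.11.15 with scipy 1.17.1 gave the exact tests. The number of arrays limits the precision. The titles call the arrays biological replicates, and nothing says that they came from separate crosses, so the p-values measure the spread between these samples.

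The members and all lists were chosen with earlier results of these data known. Named genes are the 10 members, those past the threshold in each list or else its 2 with the smallest p, and the 3 nearest in pattern to each member that passed. Others, and the neighbours of He and eater, were chosen after their values were seen. Listed genes without a probe set of their own were not analysed here. Alternatives were 3 scalings, pseudocounts of 1 and 64, the upper 50% of probe sets, no intensity trend, a replicate block, other probe sets and each array left out.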

Additional observations from a re-analysis of the deposited data

How the results depend on the processing

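The count of genes that fell was 2, and it was 1 under quantile scaling, cyclic loess and the replicate block, 0 without the intensity trend and 0 to 1 with an array left out. It was 0 without control 2 or high-sucrose 3. The count of genes that rose was 0 in each of these fits, with lz not among the upper 50% of probe sets and no such count for averaged probe sets. The log2 difference of PPO3 kept its sign and passed in 7 of 8 other settings; it was -0.96 without the intensity trend (adjusted p = 0.136), and -1.10 to -0.89 with an array left out, where 4 of 6 fits passed. That of He was -0.34 under quantile scaling and cyclic loess, -0.39 without the intensity trend (adjusted p = 0.216) and -0.39 with the replicate block (adjusted p = 0.0714), and -0.44 to -0.35 with an array left out, where it passed in none. The median of the plasmatocyte genes was 0.11 under quantile scaling and -0.061 with both Pxn probe sets averaged, and -0.020 to 0.12 with an array left out. That of the crystal cell genes was -0.13 under both quantile scaling and cyclic loess, and -0.31 to -0.14 with an array left out. The cause of these changes was not tested, beyond the fewer arrays where 1 was left out. The values showed no pairing by replicate number. Deviations of same-numbered arrays correlated at -0.072, 0.025 and -0.014, and 0 of the 3 control arrays matched best with its own number. Whether same-numbered arrays were handled together cannot be told from this. The block changed no other member's call; over all probe sets it left 59 lower and 4 higher against 107 and 10. These counts were 153 and 13 among the upper 50% of probe sets, 76 and 17 with quantile scaling, 110 and 23 after median centring, 85 and 17 with cyclic loess, and 3 and 1 without the intensity trend. With an array left out, 11 to 154 were lower and 2 to 9 higher. The values of lz, near the dim end of the arrays, limit what could be seen of it.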
